A study of Mus musculus with 4 samples.

Results

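The genes described here are 10 regulators of pluripotency and of primordial germ cells: Pou5f1, Sox2, Nanog, Klf4, Klf2, Tdgf1, Prdm1, Prdm14, Tfap2c and Sall4. Their members on the array were all non-control probes that carry the gene's name in the scanner files, which gave 16 probes of 56605. Pou5f1, Sox2, Klf4, Klf2, Prdm1, Prdm14 and Sall4 had 1 probe each, Nanog and Tfap2c 2 each and Tdgf1 5. No further probe was found through RefSeq accessions. Of the 16 probes, 9, standing for 8 genes, passed the filter on dim signals, which asked that both arrays of a line be well above background, and entered the test between lines.

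Expression in GC-1 and GC-2, both lines of mouse germ cell origin, was read with 4 Agilent arrays of 1 colour, 2 per line. SV40 large T antigen immortalised type B spermatogonia to give GC-1(spg). GC-2(spd)ts descends from spermatocytes that received large T antigen together with a p53 that is sensitive to temperature. So both groups carry large T antigen, and they differ in the cell of origin and in the p53 transgene. Both lines were grown untreated in high-glucose DMEM with serum and taken near confluence. The labels do not say whether the arrays of a line came from separate cultures. The p-values weigh the line difference against the spread between the arrays of a line, and that spread may be technical only. They thus hold for these samples alone.

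Pou5f1, Sox2 and Nanog are transcription factors that hold embryonic stem cells in the pluripotent state, where they bind many of the same enhancers. Klf2 and Klf4 are zinc finger factors of naive pluripotency and also act in many differentiated tissues, and Tdgf1 (Cripto) is a cell-surface co-receptor for the growth factor Nodal. In the embryo, Bmp signals switch on Prdm1, Prdm14 and Tfap2c in the founders of the germ line, and male germ cells lose Pou5f1, Sox2 and Nanog as they mature, while Sall4 stays on in undifferentiated spermatogonia.

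The sequences of the probes that the results turn on are shown first, because probes of Nanog and of Tdgf1 for the same gene gave unlike values. Positions are on mm9, as the scanner files give them, and the sources used here do not say whether a probe lies in a coding exon or a UTR. Nanog lies on chromosome 6, where probe A_55_P2007703 covers chr6:122663514-122663573 (base 1076 of its transcript) and probe A_55_P2007699 covers chr6:122663676-122663735 (base 1238). Tdgf1 lies on the minus strand of chromosome 9, where its probes start at transcript bases 484, 725, 896, 1113 and 1257. The probe at base 484, A_55_P2786087, has its 60 bases spread over chr9:110845095-110845661 and so spans an intron. The probe at base 1257, A_55_P1968028, covers chr9:110842722-110842781. Capitals mark bases within runs of 20 or more that also stand, on either strand, in the RefSeq promoter window of another gene (GRCm38.p6). Of 4 probes, 30 bases are shown.
Nanog A_55_P2007703: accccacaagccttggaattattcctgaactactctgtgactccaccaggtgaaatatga
Nanog A_55_P2007699, bases 11 to 40: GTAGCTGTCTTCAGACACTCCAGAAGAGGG
Tdgf1 A_55_P2786087: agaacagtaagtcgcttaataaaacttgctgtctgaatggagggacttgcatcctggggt
Tdgf1 A_52_P23716: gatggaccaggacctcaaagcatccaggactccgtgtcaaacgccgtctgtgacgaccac
Tdgf1 A_66_P112125, bases 1 to 30: tccctaatgttacccctcaaaacactaact
Tdgf1 A_55_P2058540, bases 1 to 30: gttattattaaatcccagtgtgcaactgga
Tdgf1 A_55_P1968028, bases 25 to 54: agaAAAAAGAGAGAGAGAGAAGAAAAActa
By runs of 20 bases in promoter windows, the Nanog probe A_55_P2007699 recurred most among the member probes. Runs of it, covering 56 of its 60 bases, stood in the promoter windows of 55 other genes. Of all 56605 probes, 0.177% recurred in as many. Runs of it also stood in 1 probe of another gene on the same strand and in 15 on the opposite strand. Runs of Tdgf1 A_55_P1968028, together covering 24 bases made of A and G alone, stood in the promoter windows of 2 other genes. Of all probes, 1.2% had 2 or more such genes. The other 14 member probes had no such run, like most probes on the array, of which 2.58% had at least 1. Shorter windows, counted only in probes of other genes and on the same strand, gave another order. The most frequent window of Tdgf1 A_55_P1968028 stood in 29 probes of other genes and that of Prdm14 A_66_P138895 in 23. For Nanog A_55_P2007699 the count was 3, which leaves out probes on the opposite strand. The orders thus differ in strand and in the sequences searched, not in length alone. The part of such windows in the signals was not tested.

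The probes of the core factor Pou5f1, of Sall4 and of the Klf factors are shown for identity, the Klf probes by their opening 30 bases.
Pou5f1 A_55_P2741134: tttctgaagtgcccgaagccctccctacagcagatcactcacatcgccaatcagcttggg
Sall4 A_51_P145260: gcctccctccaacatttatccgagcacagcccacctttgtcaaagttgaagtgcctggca
Klf2 A_51_P144264: tgtatataagactatgaccgattgtatttc
Klf4 A_51_P213544: aagcgctacaatcatggtcaagttcccagc

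The arrays differed in brightness, which bears on every difference below. The 75th percentile of the processed signal, the Cy3 brightness after background subtraction, was 666 and 693 in GC-1 and 416 and 199.9 in GC-2. The share of probes well above background ran from 57.5% to 64.9%. Values were therefore compared as log2 signal minus the log2 75th percentile of the array, so that a probe of equal raw signal in both lines has a higher value in GC-2. Differences are GC-2 minus GC-1 on that log2 scale, with limma's standard error (n = 2 arrays per line). Adjusted p-values are limma's after Benjamini-Hochberg adjustment over all 36692 probes tested, with a threshold of 0.05. All arrays lay on 1 slide, with each line in its own row, so slide row and line cannot be told apart. As RNA of whole cultures was measured, fewer cells with a transcript and less of it per cell cannot be told apart.

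Over the 10 genes, Klf2, Klf4 and the Tdgf1 probe A_55_P1968028 fell in GC-2, and the Nanog probe A_55_P2007699 and Sall4 rose. The other tested Tdgf1 probe, like Pou5f1, Prdm1 and Prdm14, did not pass the test. The remaining probes of Tdgf1 and Nanog did not enter it, and Sox2 and Tfap2c were above background on no array. In all, 5 of the 9 tested member probes passed, where 45.7% of all tested probes did, with 24.1% higher and 21.6% lower. By gene, taking for each its tested probe with the highest mean, 5 of 8 passed, and 44.1% of 17437 genes did. The count is thus no result about these genes as a group. Of the 9 tested probes only that of Prdm1 overlapped between the lines, and 76.9% of all tested probes did not overlap. The median log2 difference was -0.03 over the 8 genes and -0.13 over all genes tested. Scaling to the 8 E1A spike-in probes instead of the 75th percentile lowered every difference by 2.07, which turned each rise smaller than that, so that Nanog and Sall4 then stood at -0.14 and -1.18.

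**Figure D1:**
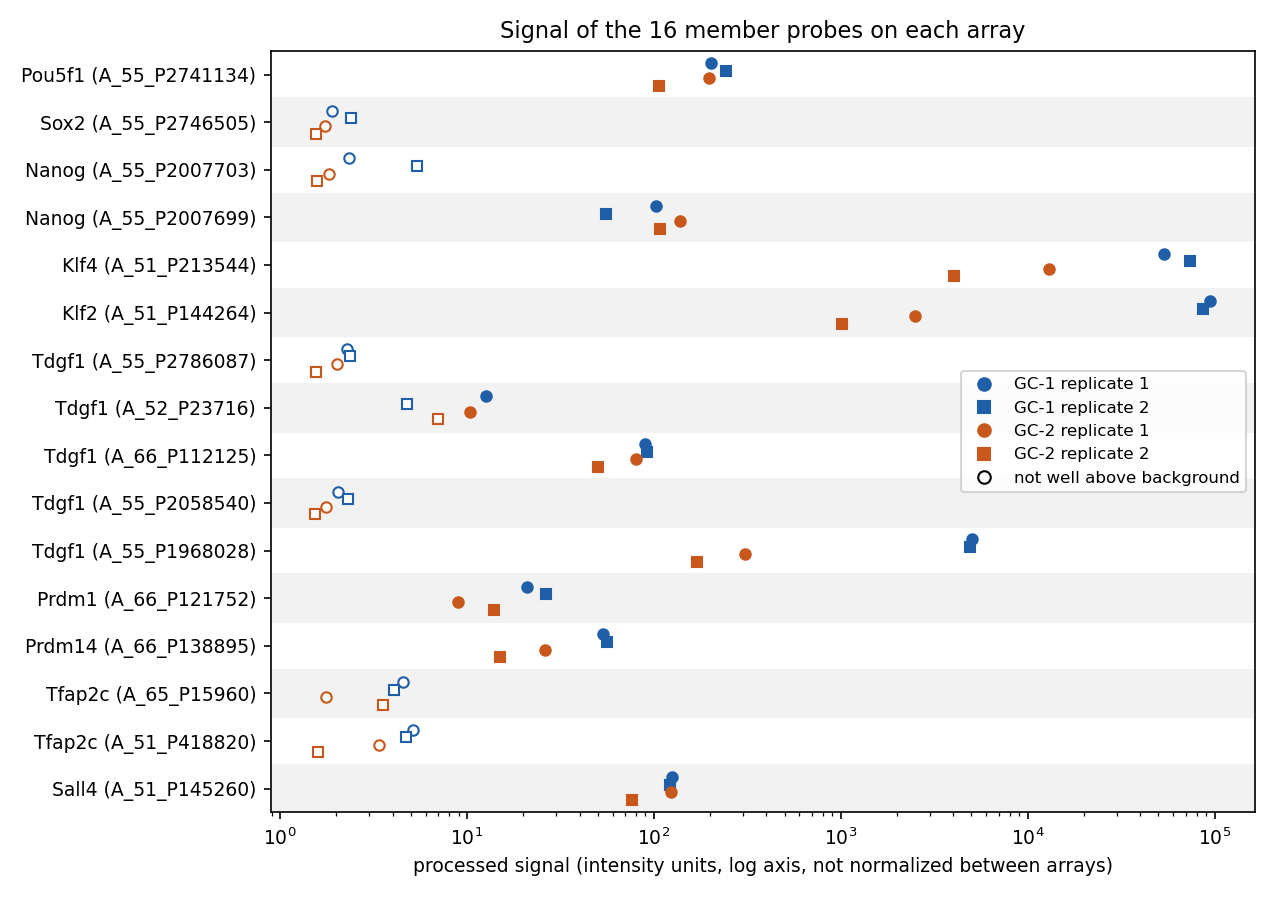
Processed signal (log axis, intensity units, before any scaling between arrays) of the 16 member probes on the 4 arrays, blue for GC-1 and orange for GC-2, circles for replicate 1 and squares for replicate 2. Open symbols are arrays on which the probe was not well above background, as for both Tfap2c probes and the Sox2 probe on all 4. The Klf2 probe sat at 86746 and 94491 in GC-1 and at 1008 and 2495 in GC-2, and the 5 probes of Tdgf1 did not share a pattern.

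Pou5f1, the POU-domain factor at the centre of the pluripotency network, was detected in both lines. Its probe covers chr17:35647013-35647072 and gave processed signals of 201 and 242 in GC-1 and 196 and 107 in GC-2. It was well above background on all 4. After scaling, both GC-2 values (-1.08 and -0.91) lay above both GC-1 values (-1.73 and -1.52). The log2 difference of 0.63 ± 0.24 (SE, n = 2 per line, 95% interval 0.03 to 1.23) did not pass the test, with a limma adjusted p of 0.0817.

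Sox2, the partner of Pou5f1 on DNA, was not detected in either line. Its probe at chr3:34551260-34551316 gave 1.89 and 2.38 in GC-1 and 1.74 and 1.55 in GC-2. It was not well above background on any array, so no level and no difference is given for it.

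Nanog, the homeodomain factor of the pluripotent epiblast, gave a different answer with each of its probes. Probe A_55_P2007703 was not well above background on any array, with signals of 2.35 and 5.37 in GC-1 and 1.82 and 1.58 in GC-2. Probe A_55_P2007699 was well above background on all 4, with signals of 103 and 55.2 in GC-1 and 138 and 108 in GC-2. The GC-2 values were the higher ones both in signal and after scaling. This probe rose by a log2 difference of 1.93 ± 0.42 (SE, n = 2 per line, 95% interval 0.87 to 2.98), a limma adjusted p of 0.0153, or 3.81-fold. Of all tested probes, 18.9% had a larger difference in size. The rise rested on particular arrays: without GC-1 replicate 2 it was 1.45 (adjusted p = 0.0697) and without GC-2 replicate 2 it was 1.58 (adjusted p = 0.0642), within a range of 0.0043 to 0.749 over all 13 alternatives. It is this second probe whose bases recur in the promoter windows of 55 other genes, as shown above. The part of that recurrence in its signal was not tested.

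**Figure D2:**
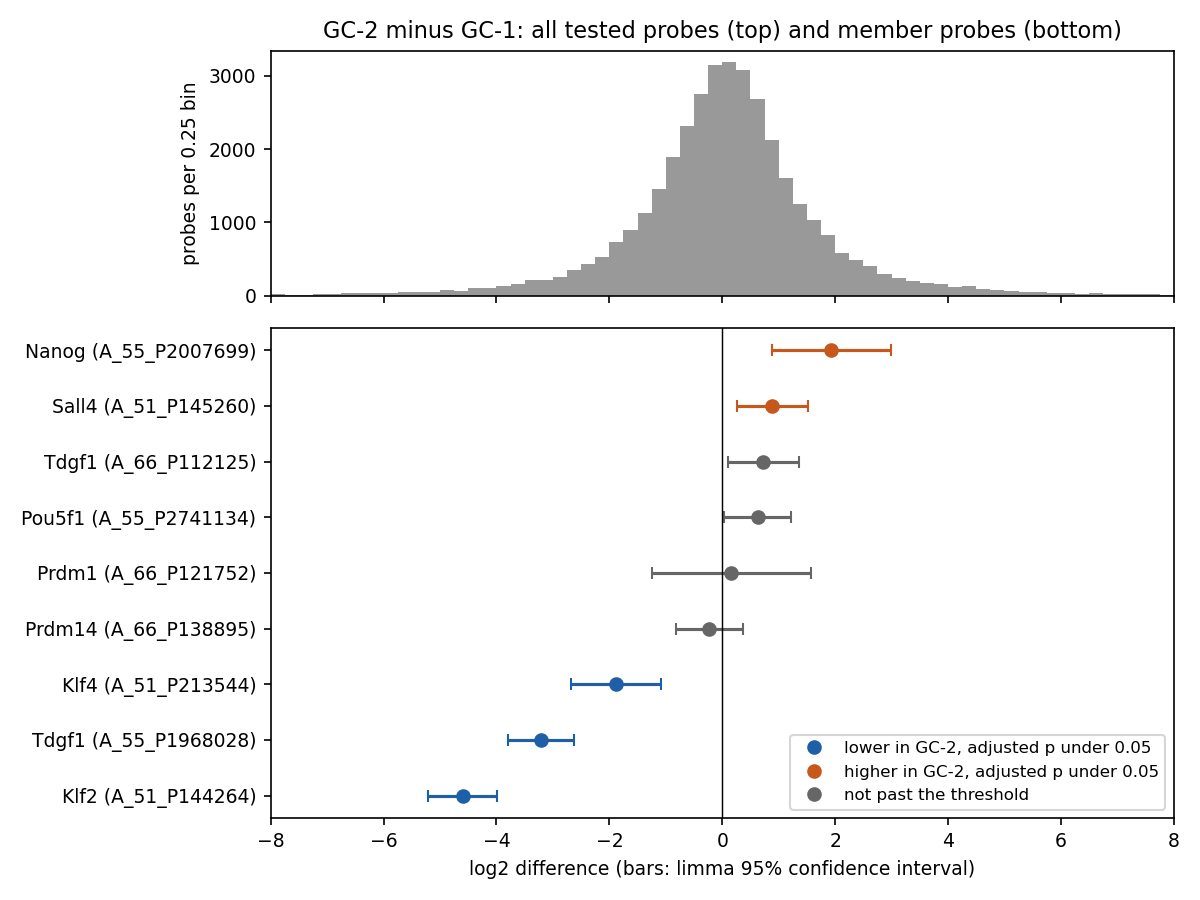
Top: number of tested probes by log2 difference, GC-2 minus GC-1, in bins of 0.25. Bottom: the 9 tested member probes on the same axis, points for the limma estimate and bars for its 95% confidence interval, coloured by adjusted p under 0.05. Klf2, Tdgf1 A_55_P1968028 and Klf4 lie to the left of 0 and Nanog and Sall4 to the right, the latter pair only under scaling that does not use the spike-in probes. The other 4 did not pass.

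Both Klf factors fell in GC-2. Klf2, known also for its action in endothelium and in resting lymphocytes, was read by 1 probe at chr8:74845137-74845196, at 94491 and 86746 in GC-1 and 2495 and 1008 in GC-2. Both GC-2 arrays were far below both GC-1 arrays. The log2 difference was -4.60 ± 0.24 (SE, n = 2 per line, 95% interval -5.21 to -3.99), a 24.2-fold fall with a limma adjusted p of 0.000238. It was the largest among the members, and 3.24% of all tested probes had a larger one. Klf4, a reprogramming factor and a regulator of epithelial barrier genes, was read by 1 probe at chr4:55540833-55540892. It gave 53402 and 74121 in GC-1 and 12932 and 4050 in GC-2. The lines did not overlap, though the GC-2 arrays were farther apart than the GC-1 arrays. Klf4 fell by a log2 difference of -1.88 ± 0.32 (SE, n = 2 per line, 95% interval -2.68 to -1.09), a 3.69-fold fall with a limma adjusted p of 0.00663. Both falls passed the test under all 13 alternatives.

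Both genes have GC-rich promoters with GC boxes, the GGGCGG motif bound by Sp and Klf family factors. The 250 bases before their RefSeq starts on GRCm38.p6 are printed in the direction of transcription, because both genes fell. Capitals mark GGGCGG and CACCC, a motif of Klf factors, on either strand. The Klf2 stretch is chr8:72318812-72319061 on the plus strand and the Klf4 stretch chr4:55532476-55532725 on the minus strand.
Klf2: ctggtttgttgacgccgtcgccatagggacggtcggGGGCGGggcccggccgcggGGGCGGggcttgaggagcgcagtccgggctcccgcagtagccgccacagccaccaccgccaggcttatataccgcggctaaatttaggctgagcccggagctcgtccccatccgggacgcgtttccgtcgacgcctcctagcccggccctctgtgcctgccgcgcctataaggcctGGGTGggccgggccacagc
Klf4: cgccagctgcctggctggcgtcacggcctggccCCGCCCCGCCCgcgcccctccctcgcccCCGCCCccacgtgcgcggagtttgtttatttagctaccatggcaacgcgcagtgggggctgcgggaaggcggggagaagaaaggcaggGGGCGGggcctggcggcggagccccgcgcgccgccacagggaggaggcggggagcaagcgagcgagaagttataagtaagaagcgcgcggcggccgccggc
In the full 300-base windows, which run 50 bases into the transcript, Klf4 held 4 copies of GGGCGG and none of CACCC, and Klf2 held 2 and 1, overlapping copies counted apart. Of 32851 promoter windows, 35.7% held GGGCGG and 57.5% held CACCC. The windows of Klf4 and Klf2 were 74.3% and 69.3% G or C, against a median of 52.7%. Windows were found for 7 of the 10 genes, with 2 each for Pou5f1 and Nanog. CACCC stood 5 times in the first Pou5f1 window, 1 time in the second and 3 times in each Nanog window. ATGCAAA, an octamer-type motif of POU factors that 4.63% of windows held, stood 1 time in the Sox2 window and in each Nanog window. ATTGTT, the core bound by Sox factors and held by 10.7% of windows, stood 1 time in the second Pou5f1 window. The Tdgf1 window had 1 GGGCGG and 41.7% G or C, and the Prdm1 window had none of the motifs. These matches describe reference sequence, and the arrays did not measure binding.

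Tdgf1, the Nodal co-receptor, had 5 probes that disagreed. The probe nearest the 3′ end, A_55_P1968028, gave 5038 and 4903 in GC-1 and 308 and 170 in GC-2. The GC-1 arrays were close together and far above both GC-2 arrays. This probe fell by a log2 difference of -3.21 ± 0.23 (SE, n = 2 per line, 95% interval -3.79 to -2.62), 9.22-fold, with a limma adjusted p of 0.000535, and it passed under all 13 alternatives. Probe A_66_P112125, at chr9:110843083-110843142, gave 89.0 and 91.6 in GC-1 and 80.3 and 50.1 in GC-2, well above background on all 4 arrays. After scaling, its GC-2 values lay above its GC-1 values. Its log2 difference of 0.73 ± 0.25 (SE, n = 2 per line, 95% interval 0.10 to 1.36) did not pass the test (limma adjusted p = 0.0627). The intervals of both probes do not overlap, and they lie on opposite sides of 0.

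The 3 remaining Tdgf1 probes were at or near background. A_55_P2786087, the intron-spanning probe, gave 2.28 and 2.37 in GC-1 and 2.02 and 1.55 in GC-2, above background on no array. A_55_P2058540 gave 2.04 and 2.30 in GC-1 and 1.76 and 1.54 in GC-2, also above background on none, although it lies between both probes that were tested. A_52_P23716 gave 12.6 and 4.76 in GC-1 and 10.4 and 6.99 in GC-2 and was well above background on replicate 1 of each line only. So the fall of Tdgf1 is a fall of 1 probe of 5. The labelled RNA was amplified from an oligo-dT primer, and that probe is also the one with runs of A and G found in promoter windows of 2 other genes. The part of either in its signal was not tested.

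The choice of probes decided the call for Tdgf1 in other summaries. The mean of its tested probes gave a log2 difference of -1.24 (limma adjusted p = 0.0095). In the authors' deposited table, which has 1 log2 value per gene name, Tdgf1 stood at -1.63 and 0.22 in GC-1 and at -2.41 and -0.98 in GC-2. There the lines overlapped, and limma on that table gave -0.98 ± 0.78 (adjusted p = 0.373). For gene names with several probes, 99.3% of the 47404 deposited values lay within 0.02 log2 of the mean of those probes that were well above background on that array, or of all probes where none was. The mean of all probes met 67.3% of them. By that rule the Tdgf1 values were made from 3, 2, 3 and 2 probes, since A_52_P23716 entered on replicate 1 of each line only. Nanog came from its A_55_P2007699 probe on all 4 arrays, with a difference of 1.89 (adjusted p = 0.0402), and Tfap2c from background signals on all 4.

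**Figure D3:**
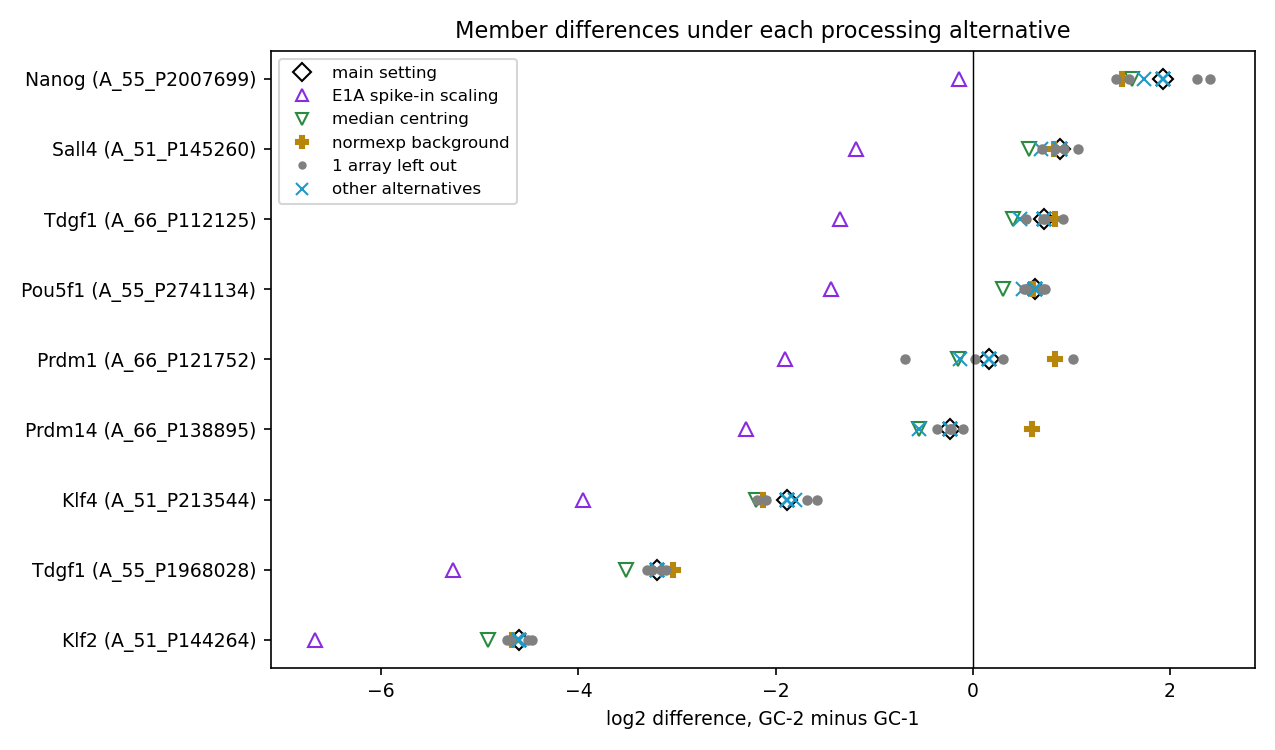
Log2 difference, GC-2 minus GC-1, of the 9 tested member probes under the main setting (diamond) and under each alternative: E1A spike-in scaling, median centring, normexp background correction, 1 array left out, and the others (crosses). Klf2 (-6.67 to -4.47), Tdgf1 A_55_P1968028 (-5.27 to -3.04) and Klf4 (-3.95 to -1.58) stayed below 0 throughout. Every probe to the right of 0 under the main setting lay left of it with spike-in scaling.

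The factors that specify primordial germ cells were dim or not detected. Prdm1 (Blimp1), a zinc finger repressor that also acts in B cells and in epithelia, gave 20.9 and 26.5 in GC-1 and 8.97 and 14.0 in GC-2 from its probe at chr10:44166619-44166678. It was well above background on all 4 arrays. After scaling the GC-2 values, -5.54 and -3.84, lay on either side of the GC-1 values, -4.99 and -4.71. The log2 difference of 0.16 ± 0.57 (SE, n = 2 per line, 95% interval -1.25 to 1.58) had a limma adjusted p of 0.833, and the interval leaves room for a change of more than 2-fold in either direction. Prdm14, which keeps differentiation signals off in stem cells and germ cell founders, gave 53.1 and 55.8 in GC-1 and 26.0 and 14.98 in GC-2 (chr1:13104458-13104517). Its raw signal was lower on both GC-2 arrays, but after scaling the log2 difference was -0.23 ± 0.24 (SE, n = 2 per line, 95% interval -0.82 to 0.37, limma adjusted p = 0.469). Of 96 probes for ERCC spike-in transcripts, whose addition the labels do not state, 3 to 9 per array were also marked well above background. The brightest of them gave 74.2 and 64.8 in GC-1 and 38.3 and 32.3 in GC-2, above the Prdm1 and Prdm14 signals on all 4 arrays and above the Nanog signal on GC-1 replicate 2. Tfap2c, the AP-2 factor of germ cell founders and of trophoblast, was above background on no array with either probe. Its signals ran from 4.06 to 5.15 in GC-1 and from 1.59 to 3.53 in GC-2.

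Sall4, a zinc finger factor shared by stem cells, germ cell founders and spermatogonia, was detected in both lines. Its probe at chr2:168578172-168578231 gave 126 and 122 in GC-1 and 124 and 76.3 in GC-2, so that the raw signals overlapped. After scaling, both GC-2 values (-1.75 and -1.39) lay above both GC-1 values (-2.41 and -2.50). Sall4 rose by a log2 difference of 0.88 ± 0.25 (SE, n = 2 per line, 95% interval 0.25 to 1.51, limma adjusted p = 0.0353), or 1.84-fold. The call was lost with any 1 array left out (adjusted p from 0.0511 to 0.148). Among 13 alternatives it passed in 4, of which the spike-in scaling gave the opposite sign.

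Other genes of the same networks were read from lists of known pathway members and relatives. Of 39 other genes of the pluripotency network, 31 were tested, 5 rose, 13 fell and 13 did not pass. The median log2 difference was -0.28, where it was -0.13 over all genes and 18.3% of all genes rose and 25.7% fell. In GC-1 31 of them were measured on both arrays and in GC-2 25. Among those never above background were Tbx3, Nr5a2, Nr0b1, Zfp42, Fgf4, Dppa2 and Dppa4, several of which mark the naive state or the early embryo. Other naive-state factors and targets of the core factors were above background on all 4 arrays. Of these, Utf1, Lin28a and Trim71 rose, Prdm15, Dppa5a and Lefty1 fell, and Klf5, Tcl1, Gdf3 and Lefty2 did not pass. Tcl1, Lin28a and Lefty2 lay below the brightest ERCC probe on some arrays. Mycn, a Myc family factor, gave 489 and 578 in GC-1 and was not above background in GC-2, at least 27.6-fold higher in GC-1. Fgf5, a marker of the primed epiblast, was likewise measured in GC-1 alone, at least 1028-fold higher there. Tfcp2l1, a naive-state factor, fell by -3.48 ± 0.35 (limma adjusted p = 0.00137), with 1 GC-2 array above background. Nacc1, a BTB-domain partner of Nanog, rose by 2.97 ± 0.26 (limma adjusted p = 0.000946).

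**Figure D4:**
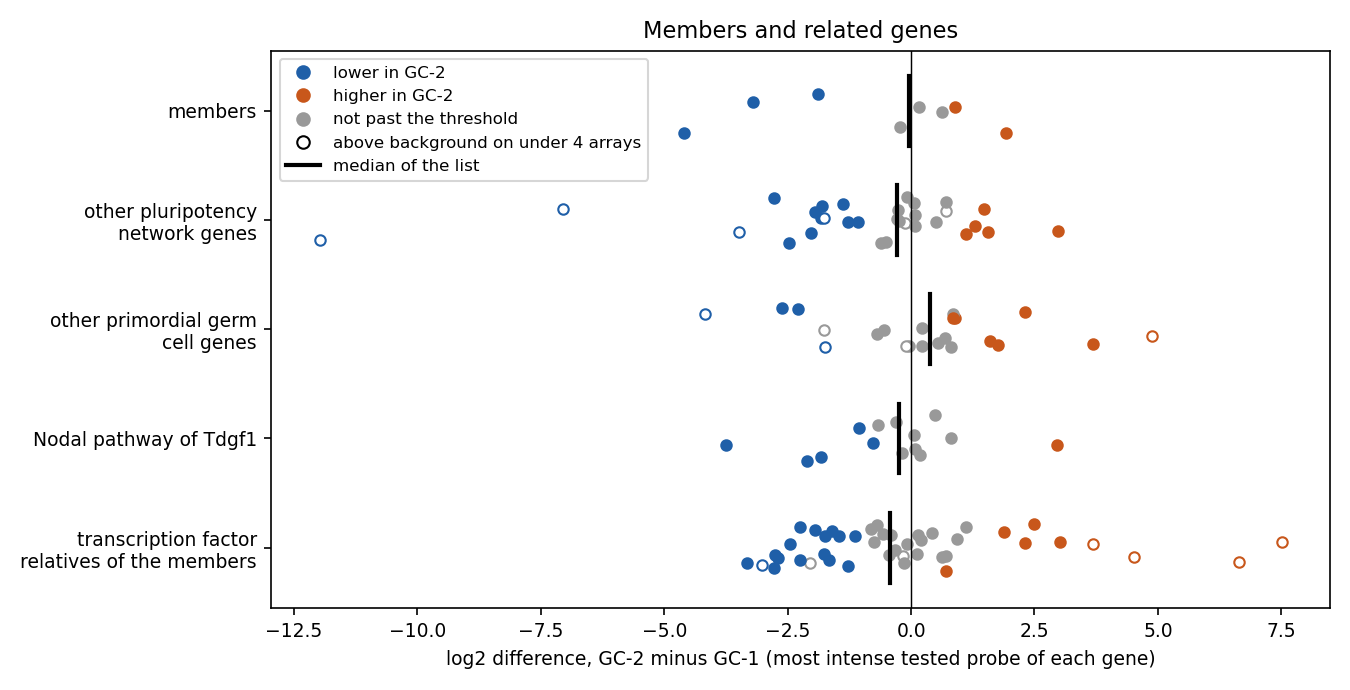
Log2 difference, GC-2 minus GC-1, of each tested gene (its tested probe with the highest mean) among the 10 members and in 4 related lists, coloured by call, with open symbols for genes above background on fewer than 4 arrays and a bar for the median. The medians ran from -0.43 in the transcription factor relatives to 0.39 in the primordial germ cell genes under the main scaling. Each list had genes that passed in both directions.

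Of 29 other primordial germ cell genes, 22 were tested, 7 rose, 4 fell and 11 did not pass, where 18.3% of all genes rose and 25.7% fell. The median was 0.39 and, like all medians here, is relative to the 75th percentile scaling. The balance turned with the scaling: 5 were higher and 7 lower with median centring, and 2 higher and 17 lower with spike-in scaling. Both Bmp ligands that passed did so in opposite directions. Bmp4, the inducer of germ cell founders, gave 26882 and 33156 in GC-1 and 4013 and 1075 in GC-2 and fell by -2.61 ± 0.35 (limma adjusted p = 0.00318). Bmp2 was above background in GC-2 alone, at least 6.04-fold higher there. Its GC-2 signals were 16.7 and 41.1, and the brightest ERCC probe gave 38.3 and 32.3. Among genes that guide migrating germ cells, Kitl, the ligand of Kit, rose by 3.68 ± 0.23 (limma adjusted p = 0.000373), while Kit itself was above background on no array. Cxcr4, the homing receptor, was above background in GC-1 alone, at least 8.20-fold higher there. Dppa3, Dazl, Nanos2, Wnt3 and T were above background on no array. In GC-1 21 of the 29 genes were measured on both arrays and in GC-2 18, in both lines with Ifitm3, Nanos3 and Dnd1 among them. Ifitm3 gave 40999 and 62778 in GC-1 and 97808 and 53897 in GC-2 and rose by 1.75 ± 0.29 (limma adjusted p = 0.00603). Nanos3 and Dnd1 did not pass.

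Around Tdgf1, 14 of 15 Nodal pathway genes were tested, 1 rose, 5 fell and 8 did not pass, with a median of -0.24. Over all genes 18.3% rose and 25.7% fell, with a median of -0.13. Lefty1, Lefty2 and Gdf3 also stand in the pluripotency list, so the lists are not separate. The receptor Acvr2b gave 6447 and 4710 in GC-1 and 178 and 172 in GC-2, a log2 difference of -3.74 ± 0.41 (limma adjusted p = 0.00174). The signal transducer Smad3 fell by -2.11 ± 0.24 (limma adjusted p = 0.00193) and the inhibitor and target Lefty1 by -1.83 ± 0.23 (limma adjusted p = 0.00279). Gdf1, a ligand that works with Nodal, rose by 2.96 ± 0.28 (limma adjusted p = 0.00112). Nodal itself gave 44.7 and 45.0 in GC-1 and 48.9 and 14.6 in GC-2, with a difference of 0.49 ± 0.31 that did not pass (limma adjusted p = 0.239).

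Among 61 relatives of the member transcription factors (other Pou, Sox, Klf, Prdm, Tfap2 and Sall genes), 44 were tested, 9 rose, 16 fell and 19 did not pass, with a median of -0.43. Over all genes 18.3% rose and 25.7% fell. Klf5, Pou3f1 and Prdm15 also stand in the pluripotency list. The 4 largest changes were rises of probes that were not above background on both GC-1 arrays. Prdm16, a regulator of brown fat and blood stem cells, had a GC-2 level at least 46.5-fold higher, and Klf15, a metabolic regulator, at least 32.1-fold. Of 4 probes of Prdm11, the one read here rose by 4.52 ± 0.54 (limma adjusted p = 0.00229). That probe was above background on no GC-1 array, so the size is taken against background signal there. By its probes together the gene was above background on all 4 arrays, and no bound is given. Tfap2a rose by 3.68 ± 0.46 (limma adjusted p = 0.00269), with 1 GC-1 array above background, while Tfap2b, Tfap2d and Tfap2e, like the member Tfap2c, were not measured on both arrays of any line. Klf12, Klf10, Klf9, Klf11, Klf7 and Klf3 fell as Klf2 and Klf4 did, by log2 differences of -3.02 to -1.74, but Klf1, Klf8 and Klf15 rose, and Klf5, Klf6, Klf13, Klf16 and Klf17 did not pass.

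By their profile over the 4 arrays, the genes most like Klf2 were Gsto2, Pik3ca and Thpo, among 14966 genes above background on all 4. Their scaled values, each centred on its mean, differed from those of Klf2 by a root mean square of 0.02, 0.06 and 0.08 log2. For Tdgf1 A_55_P1968028 they were Pigr, Prr5 and Rhox8, at 0.05, 0.06 and 0.06 log2. With 4 arrays in 2 lines, such likeness mostly restates the difference between the lines, which was -4.64 for Gsto2 and -3.28 for Pigr.

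The labelled cell type was set against defining markers. Of 12 germ cell markers, 5 were measured on both arrays in GC-1 and 3 in GC-2. Of the 5 tested, 1 rose and 1 fell. Dazl, Kit, Tex101 and Mael were above background on no array, and Stra8, Sycp1 and Sycp3 on 1 array each. Dnd1 was above background on all 4, at 101 and 71.5 in GC-1 and 106 and 39.8 in GC-2. Its difference of 0.85 ± 0.30 did not pass (limma adjusted p = 0.0655). The summed signal of the list was 203 to 279 in GC-1 and 264 to 402 in GC-2. All summed signals here are processed signals before scaling between arrays, with dim probes included, and the GC-2 arrays were dimmer. The largest part of the GC-2 sum was Gfra1, the GDNF receptor of undifferentiated spermatogonia, at 224 and 197 there and 19.5 and 23.7 in GC-1, which rose by 4.52 ± 0.35 (limma adjusted p = 0.00065). Id4, a marker of spermatogonial stem cells, was above background in GC-1 alone, at 68.1 and 42.2, at least 2.78-fold higher there. Both signals lay below the brightest ERCC probe of their array (74.2 and 64.8). Ddx4, the germ line helicase, gave 12.9 and 12.7 in GC-1 and 16.4 and 1.56 in GC-2. These signals too lay below the brightest ERCC probe of their array. On GC-1 replicate 2, 1 of the 308 negative control spots was also marked well above background. The highest negative control signal on that array was above the Ddx4 signal, so the count of Ddx4 as measured in GC-1 rests on the flag alone. Of the epithelial and mesothelial markers, 6 of 8 were tested and all 6 fell, where 25.7% of all genes tested did. The summed signal of the list was 595123 to 701153 in GC-1 and 532 to 1128 in GC-2. Among them, the keratin Krt18 fell by -11.51 ± 0.24 and the mesothelial antigen Msln by -7.32 ± 0.23 (limma adjusted p = 9.1e-05 and 0.00012). Of this list, Cdh1 and Epcam were measured on both arrays of no line. Of Sertoli cell markers 3 of 6 tested fell and 1 rose, with a summed signal of 75070 to 91258 in GC-1 and 676 to 1136 in GC-2 that was mostly Wt1, a factor of mesothelium too, which fell by -6.29 ± 0.26 (limma adjusted p = 0.00016). Amh and Cldn11 were above background on no array. Of Leydig cell markers 1 of 4 fell and 3 rose. Among mesenchymal markers 1 of 6 fell and 2 rose, and of endothelial and blood markers 1 of 4 fell. The part of these markers in the differences of Klf2, Klf4 and Tdgf1 was not tested.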

How the data were processed

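Spots were read by Agilent Feature Extraction 11.5.1.1, per the file headers. The deposited scanner files hold a processed intensity per spot, the raw mean and local background intensities, and other values, which are flags of 0 or 1 (well above background, positive and significant, saturated, irregular). The authors' deposited series table holds log2 values, 1 per gene name, and was used as an alternative. The medians of its GC-1 columns were -3.78 and -3.67, and of its GC-2 columns -3.64 and -3.53. The sources used here do not say how its values were scaled, but 99.9% of the values of 25183 names with 1 probe lay within 0.02 log2 of the probe's log2 processed intensity after a shift common to the array.

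Log2 processed intensities were averaged over a probe's spots, without irregular spots (92 to 224 per array), and the array's 75th percentile over 56605 probes was subtracted. Saturated spots were not found. Probes entered the test if both arrays of 1 or both lines were well above background. The test was limma's (version 3.58.1 in R 4.3.3, lmFit and eBayes, two-sided), and the step was tested on simulated data. Where no array of a line was above background, a bound is given: the brighter line's mean against the dim line's mean of, per array, the higher of the probe's signal and the lowest signal well above background. For Prdm11, which was above background by other probes, the difference is given instead. Probes were named through RefSeq by accession (32994), symbol (10224) or synonym (520), and 12867 kept the file's name. Probe positions are on mm9, and sequences come from the scanner files and RefSeq promoters.

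The members and lists were chosen with earlier results of these data known. Named are all members, up to 4 called genes per list with the largest changes, the cell type markers and the 3 nearest profiles. Genes above background on no array, Nodal and the Klf and Tfap2 relatives were named after their values were seen. So were the genes of the lists named as above background on all 4 arrays. Alternatives were other scalings, normexp (offset 50), filters, detection flag, variance trend, replicate block, leaving out each array, the mean of a gene's probes and the authors' table. The number of arrays limits the precision.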

Additional observations from a re-analysis of the deposited data

Results flagged for a closer look

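Tdgf1 probe A_52_P23716 was not tested, since in neither line did both arrays pass the flag for background. It was nevertheless well above background on 2 of the 4 arrays, replicate 1 of each line (signals of 12.6 and 10.4). None of the 308 negative control spots was marked well above background on those arrays, but 9 and 7 of the 96 ERCC probes were, with signals of up to 74.2 and 38.3. The labels do not state that ERCC transcripts were added. No member group had enough arrays for a check of single arrays.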

How the results depend on the processing

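The fall of the Klf2, Klf4 and Tdgf1 A_55_P1968028 probes passed the test under all 13 alternatives run on probes, and 3 member probes and genes were lower in each of them except with spike-in scaling, where 8 probes and 7 genes were, and in the authors' table, where 2 genes were. The number of member probes that were higher, 2 under the main setting, was 1 with median centring, quantile normalization, normexp background correction, no filter on dim probes or the positive-and-significant flag, 0 with spike-in scaling (limma, also 0 at an unadjusted p under 0.05) and 0 to 1 with an array left out. At 0, without GC-1 replicate 2 or GC-2 replicate 2, 1 probe had an unadjusted p under 0.05. The number of member genes that were higher, also 2, moved in the same way (1, 0 and 0 to 1) and was 1 in the authors' table. Over all probes, 8845 were higher and 7935 lower. Spike-in scaling gave 1680 and 29907, median centring 6670 and 10414, and normexp 9498 and 5037, and the median difference over tested probes, 0.07, became -0.25 with median centring and 0.50 with normexp. With an array left out, 5755 to 7401 were higher and 4928 to 6168 lower. With spike-in scaling 28 of 31 pluripotency genes, 19 of 22 primordial germ cell genes, 14 of 14 Nodal pathway genes and 40 of 44 relatives passed in either direction, against 18, 11, 6 and 25. With an array left out the primordial germ cell list had 6 to 12, the Nodal list 4 to 5, the pluripotency list 14 to 17 and the relatives 18 to 24. Signs turned with spike-in scaling for Sall4 (-1.18), Nanog (-0.14), Pou5f1 (-1.44), Tdgf1 A_66_P112125 (-1.34) and Prdm1 (-1.90). The Prdm1 difference also turned with median centring (-0.15), quantile normalization (-0.13) and ran from -0.68 (without GC-2 replicate 2) to 1.01 with an array left out, and that of Prdm14 with normexp (0.60). Tdgf1 A_66_P112125 passed, at 0.73, when only probes above background on all 4 arrays were tested (adjusted p = 0.0459, range 0.003 to 0.239). The causes were not tested. The replicate number as a block gave 9132 higher and 8200 lower probes and the same calls for all 9 member probes (Nanog 1.93, adjusted p = 0.0134). Same-numbered arrays of the 2 lines had deviations correlated at 0.12, and with 2 pairs the numbers are not shown to pair the arrays. Dim signals limit Prdm1, Prdm14, Sox2 and Tfap2c. Without 1 array of a line, the lone array was assumed to vary like those of the other line.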
